A study of Rattus norvegicus with 31 samples.

Results

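Livers of 4 female rats dosed with thiacloprid (THI) were compared with livers of 8 vehicle controls, which make up 12 of the 31 RNA-Seq libraries of the series. The libraries were chosen by their labels. All genes with a summed count of at least 2 over the 31 libraries were tested, 19904 of the 26312 genes in the count table. The animals were young adult Wistar rats of the Crl:WI stock, gavaged once a day for 28 days, and no engineered allele is named for them. THI was given at 108 mg/kg bw/day in aqueous carboxymethyl-cellulose, and the controls received that vehicle alone. Other rats of the study received imazalil (IMZ, 93 mg/kg bw/day, 4 rats), clothianidin (CTD, 288 mg/kg bw/day, 3 rats) or binary mixtures. Levels are given in CPM, the counts of a gene per one-millionth of the TMM-scaled library total, and differences as log2 fold changes with their standard error (SE). A gene was called a differentially expressed gene (DEG) at an adjusted p under 0.05 by the quasi-likelihood test of edgeR with Benjamini-Hochberg adjustment over the 19904 genes. Each library was taken as 1 rat, because the labels number replicates and the study describes its samples as independent biological replicates.

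Thiacloprid is a neonicotinoid, an insecticide built to act on nicotinic acetylcholine receptors of insects. In mammals the liver clears such compounds with enzymes that oxidize, conjugate and export foreign chemicals. Many of these genes are controlled by the constitutive androstane receptor CAR and the pregnane X receptor PXR, nuclear receptors that many drugs and pesticides activate. In the rat Cyp2b1 and Cyp2b2 are the classical genes induced through CAR, and Cyp3a23/3a1 through PXR. Genes of the defence against reactive metabolites often carry antioxidant response elements, the binding sites of the transcription factor NRF2.

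Sequences upstream of 5 genes that rose are shown, to set close copies side by side and because known elements can be read in some of them. They are the 250 bases before the start of transcription in RefSeq on the build GRCr8, written on the strand of the gene. Of the 108 DEGs, 79 had an entry there by symbol. Cyp2b1 (chr1:90645869-90646118, plus strand) and Cyp2b2 (chr1:90722031-90722280, plus strand) were identical at 225 of 233 aligned bases (96.6%) with the starts set 17 bases apart. These bases lie before the transcript, so their likeness does not show how well reads of the genes can be separated. The transcripts were not compared. Capitals mark the 8 positions that differ.
Cyp2b1: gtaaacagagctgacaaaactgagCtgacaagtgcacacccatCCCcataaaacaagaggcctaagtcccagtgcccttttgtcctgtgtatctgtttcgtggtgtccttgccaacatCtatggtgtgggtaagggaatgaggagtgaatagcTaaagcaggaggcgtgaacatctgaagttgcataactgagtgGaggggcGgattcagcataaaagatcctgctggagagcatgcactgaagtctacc
Cyp2b2: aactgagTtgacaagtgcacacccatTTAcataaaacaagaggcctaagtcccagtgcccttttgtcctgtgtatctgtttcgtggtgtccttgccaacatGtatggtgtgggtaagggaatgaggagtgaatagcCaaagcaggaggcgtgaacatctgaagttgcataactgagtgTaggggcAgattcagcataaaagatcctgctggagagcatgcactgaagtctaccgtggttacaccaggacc
The best known enhancer for CAR in these genes lies further upstream, outside these windows.

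The window of Cyp3a23/3a1 (entry Cyp3a23-3a1, chr12:14398804-14399053, minus strand) held the direct repeat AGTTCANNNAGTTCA on its opposite strand, 144 to 130 bases before the start. These are 2 copies of a nuclear receptor core site, 3 bases apart, and they stand in capitals. On either strand the same letters occurred in 2 of 33469 windows (0.00598%). Only these exact letters were searched, not variants of the core site, so the share does not say how common such repeats are.
Cyp3a23-3a1: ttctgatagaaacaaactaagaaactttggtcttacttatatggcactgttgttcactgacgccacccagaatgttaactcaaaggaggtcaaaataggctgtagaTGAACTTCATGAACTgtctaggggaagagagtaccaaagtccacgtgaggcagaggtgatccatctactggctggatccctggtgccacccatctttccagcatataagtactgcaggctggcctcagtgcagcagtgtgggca
The core of the antioxidant response element, TGACNNNGC on either strand, occurred in 10.1% of the 33469 windows, in 12.7% of the 11979 windows of genes tested, in 12 of 52 windows of genes called higher (23.1%) and in 5 of 26 of genes called lower (19.2%). Windows of Pir (chrX:33851050-33851299, minus strand), with 2 matches, and Gclm (chr2:213031885-213032134, plus strand), with 1 match, are given with the matches in capitals.
Pir: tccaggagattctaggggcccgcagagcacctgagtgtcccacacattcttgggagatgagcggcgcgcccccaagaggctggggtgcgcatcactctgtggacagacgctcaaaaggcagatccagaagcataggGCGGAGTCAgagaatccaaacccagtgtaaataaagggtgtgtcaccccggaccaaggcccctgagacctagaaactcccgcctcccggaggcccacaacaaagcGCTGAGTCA
Gclm: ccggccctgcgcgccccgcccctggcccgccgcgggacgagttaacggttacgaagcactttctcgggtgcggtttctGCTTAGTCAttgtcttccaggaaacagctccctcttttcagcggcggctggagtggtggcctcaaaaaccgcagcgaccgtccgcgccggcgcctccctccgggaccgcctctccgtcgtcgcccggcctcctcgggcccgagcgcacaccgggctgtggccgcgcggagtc
The matches are letters in a window, and binding was not measured.

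The libraries held 35.3 to 54.8 M counts in the THI rats (median 40.7 M, M for 1e6) and 32.7 to 101.2 M in the controls (median 60.45 M). Albumin took 10.81% to 15.38% of the counts with THI and 12.14% to 16.13% in the controls, and of 14 hepatocyte markers none was called by edgeR or DESeq2 and 1 had p under 0.05 before adjustment. Control 2 lay farthest from its group mean, with a root mean square deviation of 0.317 on the log2 scale against 0.178 to 0.267 in the other 11 rats. Leaving it out gave 113 DEGs, of which 94 were shared with the full set. In bulk liver, fewer cells of a type and less RNA per cell cannot be told apart.

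THI changed 108 genes, or 0.543% of those tested, with 75 higher (0.377%) and 33 lower (0.166%), while 1728 genes had p under 0.05 before adjustment. The rises were led by the phenobarbital-type genes Cyp2b1 and Cyp2b2, and the falls included Cyp7a1, the rate-limiting enzyme of bile acid synthesis. Most changes were modest, with a median log2 fold change of 0.93 among the genes called higher and -0.95 among those called lower, against -0.01 over all genes tested. By more than 2 on this scale, 15 genes rose and 3 fell. In 58 of the 75 genes called higher every THI rat lay above every control, as in 0.734% of all genes tested. In 26 of the 33 genes called lower every THI rat lay below every control, as in 0.688% of all genes. With each of the 12 rats left out in turn the number of DEGs ran from 67 (without THI 1) to 120 (without control 4), and it was 68 without THI 2 and 72 without THI 3. In all 12 of these fits 40 of the 108 genes were called, 30 higher and 10 lower.

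**Figure D1:**
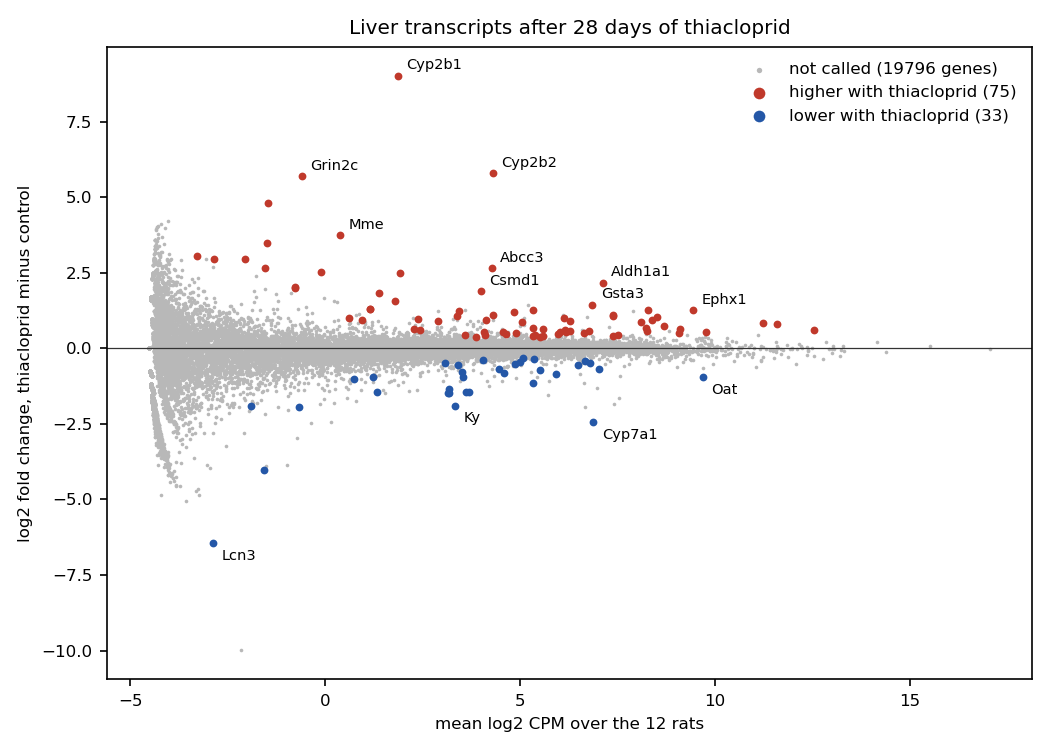
Each point is 1 of 19904 genes, by its mean log2 CPM over the 12 rats (horizontal axis) and its log2 fold change of THI minus control (vertical axis). Red points are the 75 genes called higher, up to Cyp2b1 at 9.02, and blue points the 33 called lower, with Cyp7a1 at -2.45.

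Each THI rat was also set against genes called without it, so that its own values had no part in the choice. Without THI 1, 52 genes were called higher, and that rat lay above all controls in 46 of them. The same held for THI 2 in 43 of 46, for THI 3 in 45 of 50 and for THI 4 in 46 of 67 genes. Of genes called lower, the rat left out lay below all controls in 12 of 15 for THI 1, 15 of 22 for THI 2, 15 of 22 for THI 3 and 12 of 21 for THI 4. Over all genes tested, a single rat lay above all controls in 11.6%, 12.7%, 11.2% and 14.2% of genes for THI 1 to THI 4 and below all controls in 10.4%, 11.2%, 9.62% and 10.9%. The same 8 controls served in choosing the genes and in these counts. The median difference of the rat from the control mean in the genes called higher was 0.86, 0.82, 0.82 and 0.48 on the log2 scale for THI 1 to THI 4, lowest in THI 4.

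Genes of oxidation held the largest rises. Of 19 tested targets of CAR and PXR in this phase, 7 rose and 0 fell, with a median log2 fold change of 0.55, or 0.71 without Ces2c, which was at 0 in all THI rats and at or under the floor of 3 counts in the controls. Cyp2b1 was at 0.0302 to 0.998 CPM in the controls (median 0.379) and at 325, 221, 331 and 180 CPM in the 4 THI rats. Its log2 fold change was 9.02 ± 0.88 (SE, 4 against 8 rats, edgeR adjusted p = 9.5e-08). Cyp2b2 was at 1.51 to 12.1 CPM in the controls (median 4.7) and at 293, 323, 467 and 273 CPM with THI, a rise of 5.80 ± 0.45 (edgeR adjusted p = 6.46e-10). No THI rat came near the control range of either gene. Only uniquely mapped reads were counted. Reads that fit both of these close copies were left out, so the levels of both genes may be too low.

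Of the Cyp3a genes, whose enzymes act on many drugs and steroids, Cyp3a23/3a1 and Cyp3a18 rose. Cyp3a23/3a1, at low CPM, is listed under 2 identifiers that may share reads. The first was at 0.0609 to 0.247 CPM in the controls (median 0.128) and at 1.64, 1.73, 1.32 and 1.48 CPM with THI, a rise of 3.48 ± 0.35 (edgeR adjusted p = 1.15e-07). The second, written CYP3A23/3A1, rose by 2.96 ± 0.38 (edgeR adjusted p = 2.59e-05), and neither overlapped between the groups. Cyp3a18 was at 7.41 to 22.4 CPM in the controls (median 18.3) and at 45.7, 25.4, 21.3 and 47.6 CPM with THI, so that THI 3 lay inside the control range, and rose by 1.09 ± 0.25 (edgeR adjusted p = 0.0317). That call was lost without controls 5 or 7 or THI 1 or 4 (edgeR adjusted p from 0.0507 to 0.209). Cyp3a62 was at 1.2 and 1.31 CPM on average, without a call.

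Aldh1a1, which oxidizes retinal and other aldehydes, was at 46.8 to 172 CPM in the controls (median 89.5) and at 436, 287, 458 and 438 CPM with THI, a rise of 2.18 ± 0.24 (edgeR adjusted p = 7.81e-07). THI 2 was the lowest treated rat and still above every control. Its relative Aldh1a7 rose by 2.04 ± 0.38 (edgeR adjusted p = 0.00403) from a mean of 0.35 to 1.49 CPM. Microsomal epoxide hydrolase Ephx1, which opens reactive epoxides, was at 212 to 761 CPM in the controls (median 592) and at 1710, 912, 1320 and 1320 CPM with THI, a rise of 1.27 ± 0.24 (edgeR adjusted p = 0.00415). P450 reductase Por, the electron donor of these enzymes, was at 134 and 220 CPM on average (log2 fold change 0.71, edgeR adjusted p = 0.153). Cyp2c7 was at 7120 and 8210 CPM, without a call. Among the symbols of the families Cyp1 to Cyp4, grouped after the values had been seen, 5 of 52 rose and 0 fell, with a median of 0.12.

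**Figure D2:**
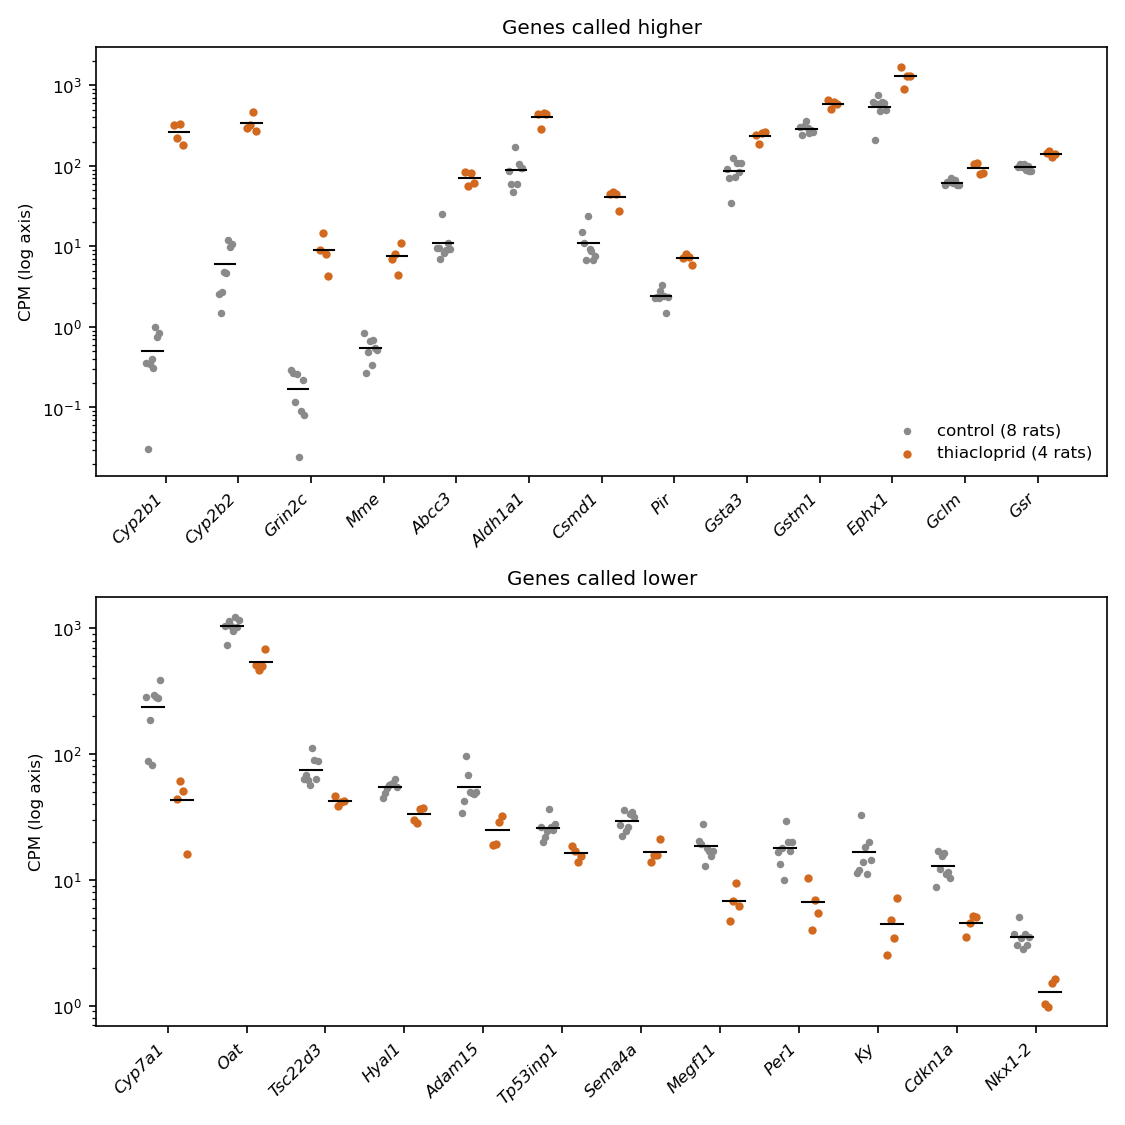
CPM of each rat on a log axis for 13 genes called higher (top) and 12 called lower (bottom), with separate colours for the 8 controls and the 4 THI rats and a black bar at each group mean. In the genes shown the groups did not overlap, except in Per1, where THI 1 was at 10.3 CPM and the lowest control at 9.99. Groups apart was a condition for naming the largest rises and falls, so for those genes it is no further evidence.

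Conjugation followed with smaller changes. Of 28 genes for the transfer of glutathione, glucuronic acid or sulfate, edgeR called 7 higher and 0 lower, and the median was 0.30. DESeq2 called 8 higher and 1 lower, the latter being Papss2, which makes the sulfate donor, at 271 and 217 CPM on average (log2 fold change -0.32, edgeR adjusted p = 0.165). Glutathione S-transferase Gstm1 was at 238 to 362 CPM in the controls (median 285) and at 657, 509, 620 and 580 CPM with THI, a rise of 1.03 ± 0.14 (edgeR adjusted p = 4.26e-05). Gsta3 was at 35 to 126 CPM in the controls (median 86.9) and at 241, 189, 254 and 265 CPM with THI, a rise of 1.45 ± 0.20 (edgeR adjusted p = 7.37e-05). Neither gene overlapped between the groups. Gsta2 rose by 0.95 ± 0.20 (edgeR adjusted p = 0.0123), a call lost without THI 3 (edgeR adjusted p = 0.116). Gstm3 rose by 2.65 ± 0.61 (edgeR adjusted p = 0.0365) from a mean of 0.18 to 1.13 CPM, and was lost without controls 1, 2, 5, 6 or 7 or THI 1, 2 or 3 (edgeR adjusted p from 0.0519 to 0.254). Gsta1 (688 and 844 CPM on average), Gsta4, Gstm2 and Gstp1 were not called. Reads that fit several such close family members would not have been counted.

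Glucuronosyltransferases, which attach glucuronic acid to drugs, bilirubin and hormones, held 3 of these calls. Ugt2b35 was at 424 to 520 CPM in the controls (median 490) and at 598 CPM or more in every THI rat, a rise of 0.50 ± 0.08 (edgeR adjusted p = 0.00117). Ugt2a3 was at 100 to 218 CPM in the controls (median 125) and at 296, 376, 243 and 212 CPM with THI, a rise of 1.07 ± 0.19 (edgeR adjusted p = 0.00267) with THI 4 inside the control range. Ugt2b17 rose by 1.27 ± 0.25 (edgeR adjusted p = 0.00586), and the call was lost without THI 3 (edgeR adjusted p = 0.0614). Of 10 symbols of the Ugt family, grouped after the values had been seen, 5 rose, which adds Ugt1a2 at 0.63 ± 0.11 and Ugt2b37 at 0.69 ± 0.16. The call of Ugt2b37 was lost without controls 1, 3, 5, 6, 7 or 8 or THI 1, 2 or 4 (edgeR adjusted p from 0.0519 to 0.177). The sulfotransferase Sult2a1 was at 2630 and 1960 CPM on average (edgeR adjusted p = 0.509).

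Of 13 transporters of drugs and conjugates, 3 rose and 0 fell, with a median of 0.27. Abcc3 exports glucuronides and bile salts from the hepatocyte into blood. It was at 6.97 to 25.2 CPM in the controls (median 9.38) and at 83.4, 55.7, 80.8 and 61.6 CPM with THI, a rise of 2.66 ± 0.23 (edgeR adjusted p = 5.26e-09) without overlap. The uptake transporter Slco1a4 was at 51.1 to 203 CPM in the controls (median 136) and at 343, 179, 325 and 329 CPM with THI, with THI 2 inside the control range, and rose by 1.09 ± 0.25 (edgeR adjusted p = 0.037). The efflux pump Abcb1a was at 28.7 to 39.3 CPM in the controls (median 34.5) and at 67.8, 51.5, 60.6 and 41.9 CPM with THI and rose by 0.68 ± 0.17 (edgeR adjusted p = 0.0486). The call of Slco1a4 was lost without controls 3, 5, 6 or 8 or THI 1, 3 or 4 (edgeR adjusted p from 0.0605 to 0.168), and that of Abcb1a without controls 1, 3, 4, 5, 6, 7 or 8 or THI 1, 2 or 3 (edgeR adjusted p from 0.0623 to 0.292).

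Carboxylesterases, which cleave ester and amide bonds of drugs and lipids, formed a further group that was noticed after the values had been seen. Of 13 tested symbols of Ces1 and Ces2, 7 were called higher and 0 lower, with a median of 0.54. Ces1c, a plasma esterase of rodents, was at 624 to 938 CPM in the controls (median 756) and at 1050, 980, 1230 and 1270 CPM with THI, a rise of 0.55 ± 0.10 (edgeR adjusted p = 0.00492). Ces1d rose by 0.74, Ces1h by 0.89, Ces2g by 0.51, CES2H by 0.54, Ces2i by 0.87 and Ces2j by 0.94 on the log2 scale. Ces2e, at 400 and 399 CPM on average, and Ces1e, at 143 and 157 CPM, were not called. Of the risen genes, Ces1c alone was called with each rat left out. Ces1d was lost without THI 2 or 3, Ces1h without THI 4, Ces2i without THI 4 and CES2H without THI 3 (edgeR adjusted p from 0.0522 to 0.133). Ces2g was lost without controls 1, 2, 3, 5, 7 or 8 or THI 1, 2, 3 or 4 and Ces2j without controls 1, 2, 3, 5, 6, 7 or 8 or THI 1, 2 or 4 (edgeR adjusted p from 0.0538 to 0.294). These genes are alike in sequence, and reads that fit several of them would not have been counted.

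Among 21 targets of NRF2, 4 rose and 0 fell, and the median was 0.40. Glutathione reductase Gsr was at 86.5 to 105 CPM in the controls (median 97.9) and at 145, 152, 128 and 141 CPM with THI, a rise of 0.56 ± 0.09 (edgeR adjusted p = 0.000527). Gclm, the modifier subunit of the enzyme that starts glutathione synthesis, was at 57.3 to 70.1 CPM in the controls (median 62.1) and at 106, 108, 78.9 and 82.4 CPM with THI, a rise of 0.60 ± 0.10 (edgeR adjusted p = 0.0012). Both changes were small, with a narrow spread and no overlap. The other calls were Ephx1, also a target of CAR and PXR, and malic enzyme Me1, a source of NADPH. Me1 was at 20.7 to 54.7 CPM in the controls (median 25.8) and at 84.1, 97.7, 54 and 67.3 CPM with THI and rose by 1.27 ± 0.30 (edgeR adjusted p = 0.0445), a call lost without controls 1, 2, 3, 6, 7 or 8 or THI 1, 2 or 4 (edgeR adjusted p from 0.0577 to 0.229). Pir, a nuclear protein known to respond to NRF2 but not on the list, was at 1.5 to 3.28 CPM in the controls (median 2.36) and at 7.25, 8.03, 7.39 and 5.88 CPM with THI, a rise of 1.56 ± 0.17 (edgeR adjusted p = 7.81e-07). Hmox1, at 31.3 and 34.4 CPM on average, and Nqo1, at 60.2 and 86.7 CPM, were not called.

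The listed receptors themselves gave no call. Rxrg, a partner that is not on the list, was called lower by edgeR and is described under the other observations. That call was lost in 7 of 12 fits with a rat left out. Of 17 xenosensors and their partners, 6 had p under 0.05 before adjustment by edgeR, and edgeR and DESeq2 called 0. The mRNA of CAR (Nr1i3) was at 9.16 and 17.4 CPM on average (edgeR adjusted p = 0.153), and that of PXR (Nr1i2) at 103 and 95.8 CPM. Of 7 targets of the aryl hydrocarbon receptor, 3 had p under 0.05 before adjustment, and both tools called 0. Cyp1a1, the gene most often used to read that receptor, was at 0.268 to 7.81 CPM in the controls (median 2.15) and at 10.2, 39, 16.2 and 7.57 CPM with THI (log2 fold change 2.45 ± 0.63, edgeR adjusted p = 0.0794). THI 4 alone overlapped with the controls. Cyp1a2 was at 1470 and 1710 CPM on average, without a call.

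**Figure D3:**
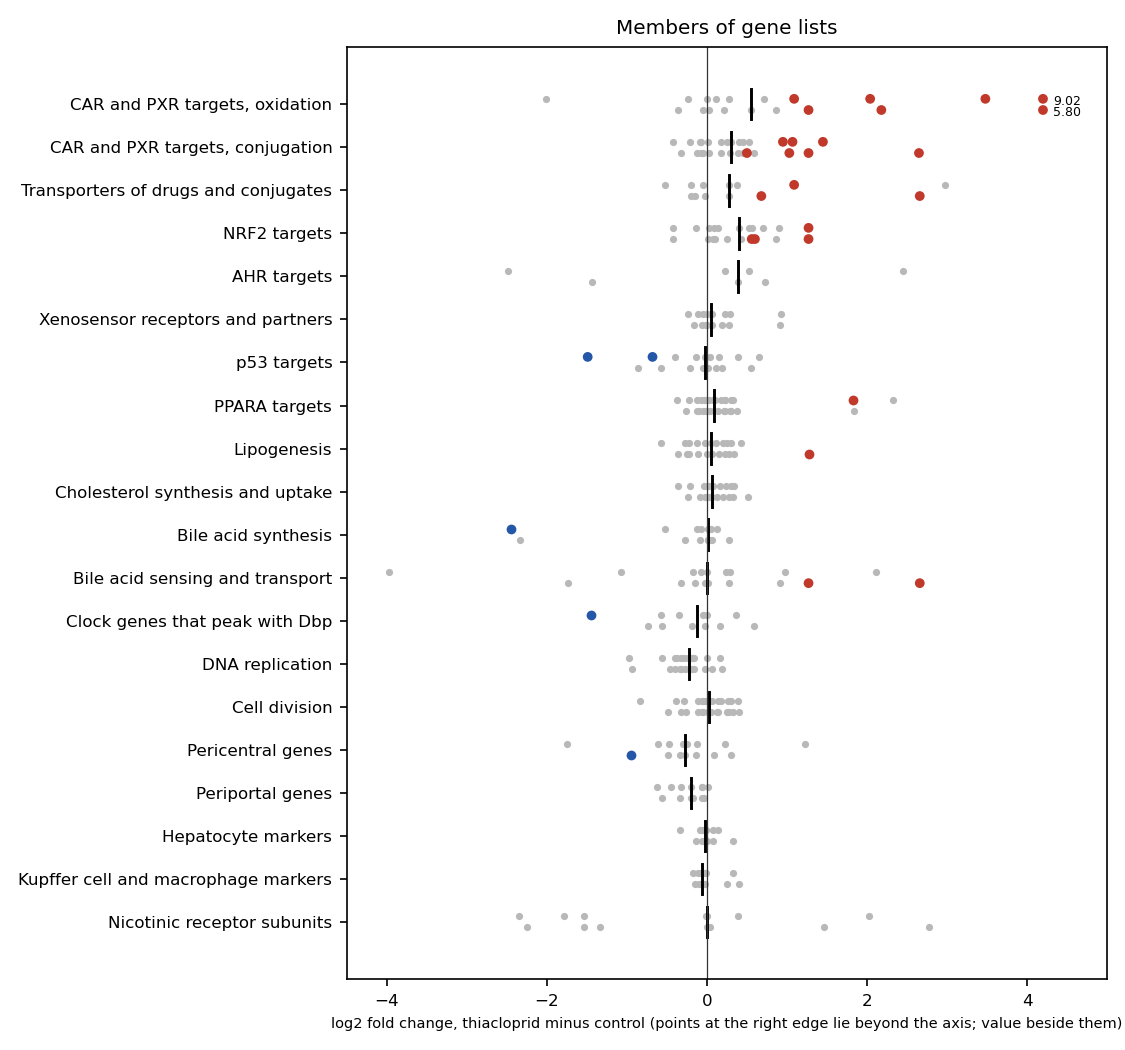
Log2 fold changes of THI minus control for the tested members of 20 gene lists, with red points for members called higher, blue for members called lower, grey for the others and a black bar at the median of each list. Red points gather in the lists of foreign compound metabolism, transport and NRF2, while 0.377% of all genes tested were called higher. The lists were chosen with earlier results of these data known, and some share members, such as Ephx1. Points beyond the axis carry their values, such as 9.02 for Cyp2b1.

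Several of the largest rises lay outside these lists. Grin2c, a subunit of the NMDA type of glutamate receptor, was at 0.0244 to 0.289 CPM in the controls (median 0.168) and at 8.92, 14.7, 8.02 and 4.31 CPM with THI, a rise of 5.70 ± 0.42 (edgeR adjusted p = 2.93e-10). Of 15 tested glutamate receptor subunits, grouped after the values had been seen, it was the single call. Neprilysin Mme, a membrane peptidase, was at 0.271 to 0.83 CPM in the controls (median 0.533) and at 6.98, 7.94, 4.38 and 10.9 CPM with THI, a rise of 3.74 ± 0.38 (edgeR adjusted p = 1.36e-07). Csmd1, a membrane protein with complement control domains, was at 6.71 to 23.7 CPM in the controls (median 8.98) and at 44.8, 47.6, 45 and 27.5 CPM with THI, a rise of 1.88 ± 0.25 (edgeR adjusted p = 3.46e-05). None of these 3 genes overlapped between the groups.

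Pantetheinase Vnn1, a target of PPARA, was at 0.912 to 2.74 CPM in the controls (median 1.73) and at 6.79, 7.47, 7.11 and 3.64 CPM with THI, a rise of 1.83 ± 0.29 (edgeR adjusted p = 0.000618). It was the single call among 31 tested targets of PPARA, whose median was 0.09. Egln3, a prolyl hydroxylase that marks hypoxia-inducible factors for breakdown, was at 0.238 to 1.21 CPM in the controls (median 0.422) and at 2.86, 4.33, 2.59 and 2.38 CPM with THI, a rise of 2.52 ± 0.41 (edgeR adjusted p = 0.000956). Carnitine octanoyltransferase Crot rose by 1.00 ± 0.19 and the calcium-binding annexin Anxa7 by 1.08 ± 0.14, both without overlap. The zinc transporter Slc39a5 rose by 1.23 ± 0.27, a call lost without control 5 or THI 2, 3 or 4 (edgeR adjusted p from 0.0507 to 0.111). Akr1cl, of the aldo-keto reductases, rose by 1.22 ± 0.23, a call lost without THI 3 (edgeR adjusted p = 0.0522).

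A few rises leaned on THI 4, and they are named for that pattern, after their values were seen. The methyltransferase Inmt was at 0.491 to 7.17 CPM in the controls (median 2.59) and at 6.3, 8.8, 7.69 and 46.2 CPM with THI. Its call, at 2.49 ± 0.60, was lost without controls 1, 2, 3, 5, 6, 7 or 8 or THI 2 or 4 (edgeR adjusted p from 0.0524 to 0.571). The protease inhibitor Serpinb1a, at 2.1, 3.34, 3.75 and 7.57 CPM with THI, was lost without THI 4 (edgeR adjusted p = 0.287). The unnamed gene ENSRNOG00000047172, at 3.1, 0.0751, 3.23 and 15.9 CPM with THI, was also lost without THI 4 (edgeR adjusted p = 0.222).

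Cyp7a1 fell the most among called genes with more than 10 CPM on average in the controls. It was at 81.9 to 385 CPM in the controls (median 281) and at 44.1, 60.7, 51.3 and 16 CPM with THI, a fall of 2.45 ± 0.55 on the log2 scale (edgeR adjusted p = 0.0275). Every THI rat lay below every control, though the controls varied widely. The call was lost without THI 1, 2, 3 or 4 (edgeR adjusted p from 0.0578 to 0.119), and over all 12 fits the log2 fold change stayed between -2.67 and -2.18. Of 16 genes of bile acid synthesis it was the single call, and their median was 0.01. Cyp8b1, which directs synthesis towards cholic acid, was at 262 and 182 CPM on average (edgeR adjusted p = 0.686), and Cyp27a1 of the alternative pathway at 461 and 466 CPM. Of 18 genes of bile acid sensing and transport, Abcc3 and Ephx1 rose and edgeR called none lower. Nr0b2 (SHP), a repressor of Cyp7a1, was at 13.5 and 25.4 CPM (edgeR adjusted p = 0.273).

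Cdkn1a, the p21 inhibitor of cyclin-dependent kinases, was at 8.7 to 16.8 CPM in the controls (median 11.8) and at 3.48, 4.54, 5.18 and 5.07 CPM with THI, a fall of 1.49 ± 0.25 on the log2 scale (edgeR adjusted p = 0.00103). Tp53inp1, a p53-induced protein of stress response and autophagy, was at 20.1 to 36.5 CPM in the controls (median 25.6) and at 18.6, 16.8, 13.9 and 15.6 CPM with THI, a fall of 0.68 ± 0.13 (edgeR adjusted p = 0.00526). In both genes all THI rats lay below all controls, and both were called in all 12 fits with a rat left out. They were the calls among 17 p53 targets, of which 8 had a log2 fold change above 0, with a median of -0.02. Mdm2, at 17.5 and 22.9 CPM on average, and Bax, at 7.45 and 7.49 CPM, were not called. Of 30 genes of cell division 0 had p under 0.05 before adjustment, and edgeR and DESeq2 called 0. Of 26 genes of DNA replication 4 had a log2 fold change above 0, with a median of -0.23, 4 had p under 0.05 before adjustment, and both tools called 0.

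The clock gene Per1, a repressor of the circadian loop that glucocorticoids also induce, was at 9.99 to 29.4 CPM in the controls (median 17.4) and at 10.3, 4, 6.95 and 5.43 CPM with THI. The fall was 1.45 ± 0.27 on the log2 scale (edgeR adjusted p = 0.00403), with THI 1 inside the control range. Of 12 clock genes that peak with Dbp it was the single call, with a median of -0.12. Dbp itself was at 5.54 and 3.69 CPM on average (edgeR adjusted p = 0.176) and Per2 at 28.3 and 28.3 CPM. Of 5 genes that peak with Arntl, 0 had p under 0.05 before adjustment, and edgeR and DESeq2 called 0. Tsc22d3, the glucocorticoid-induced leucine zipper protein, was at 56.4 to 112 CPM in the controls (median 65.6) and at 46, 38.5, 41.5 and 42.3 CPM with THI, a fall of 0.84 ± 0.16 (edgeR adjusted p = 0.00718).

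Further falls concerned genes of varied function. Ky, a protein known from muscle, was at 11.2 to 32.5 CPM in the controls (median 14.2) and at 2.51, 4.75, 3.45 and 7.14 CPM with THI, a fall of 1.89 ± 0.31 (edgeR adjusted p = 0.000717). Megf11, a membrane protein with repeats like those of epidermal growth factor, was at 12.9 to 28 CPM in the controls (median 17.3) and at 4.74, 6.83, 9.4 and 6.19 CPM with THI, a fall of 1.44 ± 0.19 (edgeR adjusted p = 3.3e-05). The homeobox gene Nkx1-2 fell by 1.46 ± 0.26, the metalloproteinase Adam15 by 1.14 ± 0.20 and the semaphorin Sema4a by 0.83 ± 0.16. In all 5 genes the groups did not overlap, and each was called in all 12 fits with a rat left out. The study reported Ky as the exception among its selected genes, where qRT-PCR and RNA-Seq did not correlate well in direction. Hyaluronidases, which degrade hyaluronan, fell in 2 of 4 cases, a family noticed after the values had been seen. Hyal1 was at 44.6 to 63.3 CPM in the controls (median 55.9) and at 30, 28.5, 36.9 and 37.5 CPM with THI, a fall of 0.72 ± 0.12 (edgeR adjusted p = 0.000637). Hyal3 fell by 0.55 ± 0.13, a call lost without controls 3, 5 or 7 or THI 1 or 2 (edgeR adjusted p from 0.0507 to 0.226).

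Other falls were lost with single rats left out. Carbonic anhydrase Car12 fell by 0.96 ± 0.21, lost without THI 2 or 4 (edgeR adjusted p from 0.131 to 0.151). The vasopressin receptor Avpr1a, through which that hormone raises calcium in hepatocytes, fell by 0.68 ± 0.16, lost without controls 3, 5, 6 or 8 or THI 1, 2, 3 or 4 (edgeR adjusted p from 0.0603 to 0.216). Igfbp3, the main carrier of insulin-like growth factors in blood, fell by 0.52 ± 0.12, lost without controls 2, 3, 5 or 7 or THI 2, 3 or 4 (edgeR adjusted p from 0.052 to 0.237). It was the single call among 19 genes of growth hormone and sex-dependent expression. Lcn3, a lipocalin, held 120 counts over the 8 controls and 0 over the 4 THI rats, at least 14-fold lower against a floor of 3 counts over the group. Its call was lost without THI 1, 2, 3 or 4 (edgeR adjusted p from 0.0537 to 0.0741).

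Ornithine aminotransferase Oat, an enzyme of hepatocytes around the central vein, was at 733 to 1240 CPM in the controls (median 1050) and at 513, 466, 500 and 681 CPM with THI, a fall of 0.95 ± 0.22 (edgeR adjusted p = 0.0381). It was lost without controls 1, 3, 6, 7 or 8 or THI 1, 2 or 3 (edgeR adjusted p from 0.0545 to 0.17). Over all genes tested, 0.543% were called by edgeR and 1728 of 19904 had p under 0.05 before adjustment. Of 15 pericentral genes Oat was the single call by edgeR, 8 had p under 0.05 before adjustment, and the median was -0.28. DESeq2 called 1 of these pericentral genes higher and 2 lower, with Rhbg and Znrf3 called by DESeq2 alone. The ammonium transporter Rhbg of that zone was at 6.13 and 14.2 CPM on average (edgeR adjusted p = 0.0678) and glutamine synthetase Glul at 477 and 388 CPM (edgeR adjusted p = 0.572). Of 13 periportal genes 3 had p under 0.05 before adjustment, edgeR and DESeq2 called 0, and the median was -0.20. Their summed level was 15400 to 20400 CPM in the controls and 12800 to 14600 CPM with THI.

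Elastin (Eln), the core of elastic fibres, was at 5.31 to 20.3 CPM in the controls (median 14.2) and at 4.26, 6.08, 5.93 and 4.52 CPM with THI, a fall of 1.34 ± 0.28 (edgeR adjusted p = 0.0167) that was lost without THI 1 or 4 (edgeR adjusted p from 0.0699 to 0.099). It was the single call by edgeR among 17 genes of elastic fibres and smooth muscle, which summed to 232 to 315 CPM in the controls and 230 to 255 CPM with THI. The immunoglobulin light chain Igkc, made by plasma cells, was at 10.2 to 17 CPM in the controls (median 12.2) and at 5.69, 3.43, 6.81 and 2.93 CPM with THI, a fall of 1.48 ± 0.34 (edgeR adjusted p = 0.037) that was lost without controls 3, 5 or 7 or THI 1, 2 or 4 (edgeR adjusted p from 0.0612 to 0.183). The 8 tested markers of B and plasma cells summed to 10.9 to 16.8 CPM in the controls and 6.29 to 10.3 CPM with THI, most of it Cd22 at 12.5 and 8.2 CPM on average. Of them 2 had p under 0.05 before adjustment, and edgeR and DESeq2 called 0. The part of these cells in the values of Eln and Igkc was not tested.

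Markers of other cells gave 0 calls by edgeR. With p under 0.05 before adjustment there were 0 of 16 markers of Kupffer cells and macrophages, 1 of 16 of T and NK cells, 1 of 10 of neutrophils, 7 of 14 of stellate cells and fibroblasts, 1 of 12 of sinusoidal endothelium, 1 of 9 of bile ducts, 0 of 7 of red blood cells and 1 of 9 of pancreas. DESeq2 called 1 of them, Rgs5 of the stellate list. Over all genes, 1728 of 19904 had p under 0.05 before adjustment. The stellate list went both ways, with 7 of 14 members above 0, log2 fold changes from -1.37 to 0.66 and a median of -0.04. The pancreas markers summed to 194 to 470 CPM in the controls and 60.4 to 127 CPM with THI, nearly all of it Cpa1, at 189 to 464 CPM in the controls (median 256) and at 79.1, 55.1, 111 and 120 CPM with THI (log2 fold change -1.64 ± 0.49, edgeR adjusted p = 0.173). The defining pancreatic enzymes Prss1 and Pnlip were at 0 in both groups, and Cela1 was at 4.59 and 4.82 CPM on average.

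Lists of lipid, sugar and hormone metabolism gave few calls. Me1 was the single call among 22 genes of lipogenesis and among 12 of thyroid hormone handling. By edgeR and DESeq2 there were 0 calls among 24 genes of cholesterol synthesis and uptake (3 with p under 0.05 before adjustment), 19 of fasting and gluconeogenesis (3), 19 of steroid hormone metabolism (7), 17 of the stress of the endoplasmic reticulum (0) and 12 of fat storage (1). The same held for 17 genes of the interferon response (0) and 18 of antigen presentation and Toll receptors (2). Of 16 acute phase genes edgeR called 0, 1 had p under 0.05 before adjustment, and DESeq2 called Itih3 lower. Nicotinic receptor subunits, the vertebrate relatives of the insect target of thiacloprid, were low. Of 14 tested, Chrnb1 (1.53 and 1.99 CPM) and Chrne (3.26 and 3.26 CPM) alone exceeded 1 CPM on average, 2 had p under 0.05 before adjustment, and edgeR and DESeq2 called 0. Of 10 genes that the study picked as most regulated, 5 were called higher and 4 lower, a choice made on these libraries and no independent evidence.

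Direct contrasts with the other single compounds asked where the THI livers differed from theirs, at unequal doses of 108 mg/kg bw/day of THI, 93 of IMZ and 288 of CTD. THI minus IMZ gave 2 DEGs, 0.0100% of the genes tested, with 1026 genes at p under 0.05 before adjustment and 12 DEGs by DESeq2. Both were lower with THI, Cdkn1a by 1.55 ± 0.27 (edgeR adjusted p = 0.0287) and Tp53inp1 by 0.89 ± 0.15 (edgeR adjusted p = 0.0186). Cdkn1a had means of 12.8 CPM in the controls, 13.4 with IMZ, 11.3 with CTD and 4.57 with THI. Tp53inp1 had means of 26, 30.1, 25.7 and 16.2 CPM in the same order. Against CTD, Cdkn1a was lower with THI by 1.30 ± 0.29 (edgeR adjusted p = 0.00434) and Tp53inp1 by 0.66 ± 0.16 (edgeR adjusted p = 0.0075). The call of Cdkn1a against IMZ was lost without IMZ 2, 3 or 4 or THI 1, 2, 3 or 4 (edgeR adjusted p from 0.0796 to 0.233) and that of Tp53inp1 without IMZ 2, 3 or 4 or THI 2, 3 or 4 (edgeR adjusted p from 0.075 to 0.112). Against CTD, Tp53inp1 was lost without CTD 1 (edgeR adjusted p = 0.16).

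THI minus CTD gave 1317 DEGs, 6.62% of the genes tested, 637 higher and 680 lower with THI, and 11 of them were also DEGs of THI against control. Without CTD 1 there were 603 DEGs in this contrast. Among those with the smallest p, Scamp3 had means of 39.5 CPM in the controls, 37.3 with THI and 11.9 with CTD, and Ccne1, a cyclin of the start of replication, 0.521, 0.283 and 2.71 CPM. Besides Cdkn1a and Tp53inp1, the 11 genes were Gclm, Casd1, Rmdn2, Ubqln2, Pir, Ky, Abhd4, Cndp2 and CYP3A23/3A1. Pir was higher with THI than with CTD by 0.86 ± 0.23 (edgeR adjusted p = 0.0163), and Gclm was lower by 0.45 ± 0.13 (edgeR adjusted p = 0.0269). The dipeptidase Cndp2 was higher by 1.11 ± 0.18 (edgeR adjusted p = 0.000158), with log2 fold changes against control of 0.58 for THI and -0.53 for CTD. Ky was higher with THI than with CTD by 1.37 ± 0.40 (edgeR adjusted p = 0.0318). The call of Pir was lost without CTD 1 or 3, that of Gclm without CTD 1 or 2 or THI 3 or 4 and that of Ky without CTD 1 or 3 or THI 2 or 4 (edgeR adjusted p from 0.0511 to 0.195). That of Casd1 was lost without CTD 1 or 2 or THI 1, 2 or 3 (edgeR adjusted p from 0.0517 to 0.214), that of Rmdn2 without CTD 3, that of Abhd4 without CTD 1 and that of CYP3A23/3A1 without CTD 3 (edgeR adjusted p from 0.0616 to 0.0648). Against control, Cndp2, Ubqln2, Casd1 and Rmdn2 were called in 2, 2, 5 and 9 of the 12 fits with a rat left out, and lost without controls 1, 3, 4, 5, 6, 7 or 8 or THI 1, 2 or 3 for Cndp2, controls 1, 3, 4, 5, 6, 7 or 8 or THI 1, 2 or 3 for Ubqln2, controls 5, 6, 7 or 8 or THI 1, 2 or 3 for Casd1 and THI 1, 3 or 4 for Rmdn2 (edgeR adjusted p from 0.0515 to 0.333).

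**Figure D4:**
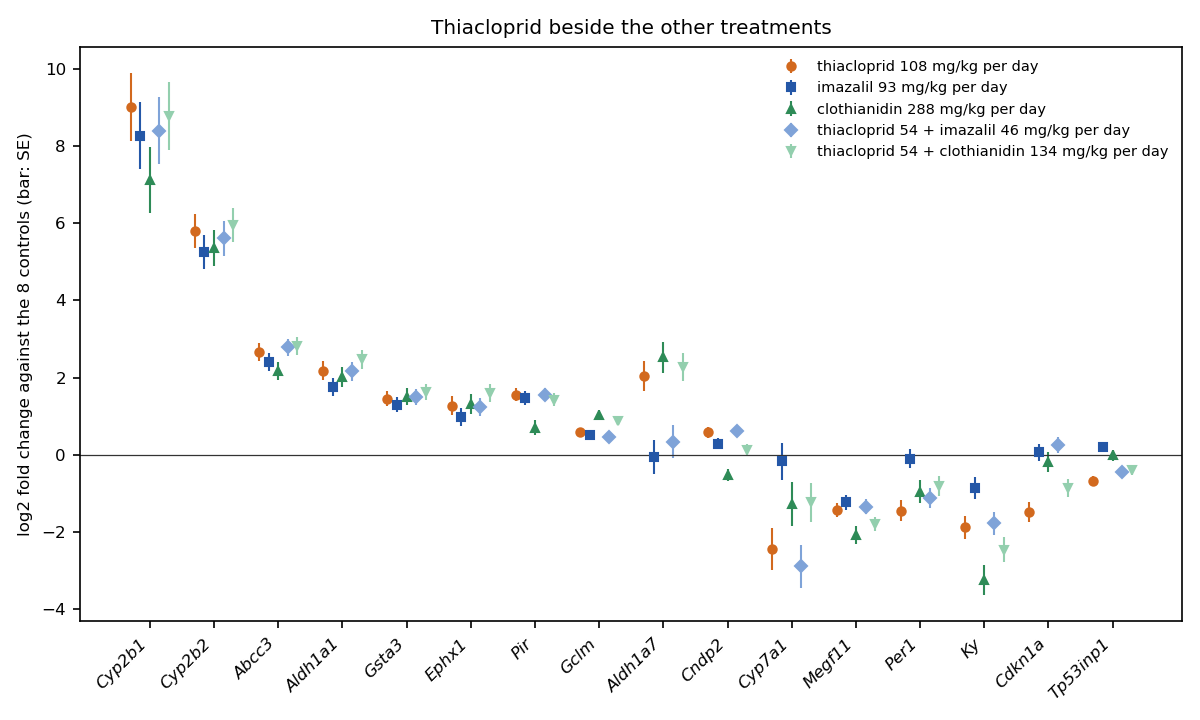
Log2 fold changes against the same 8 controls, with SE as bars, for 16 genes after THI, IMZ, CTD and the mixtures of THI with IMZ or with CTD at the doses in the legend. Cdkn1a lies at -1.49 with THI, 0.06 with IMZ and -0.19 with CTD, while Cyp2b1 lies far above 0 in every group.

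Values against the shared controls are given side by side in the order THI, IMZ, CTD, THI + IMZ and THI + CTD, where the mixtures held THI at 54 mg/kg bw/day. Cyp2b1 had log2 fold changes of 9.02, 8.28, 7.13, 8.41 and 8.78, Cyp2b2 of 5.80, 5.26, 5.36, 5.61 and 5.96 and Abcc3 of 2.66, 2.41, 2.17, 2.78 and 2.82. For Cyp2b1 the difference of THI from CTD was 1.89 ± 0.92 and did not pass the threshold (edgeR adjusted p = 0.256). Cyp7a1 had -2.45, -0.17, -1.29, -2.90 and -1.24, and THI was not shown to differ from IMZ (edgeR adjusted p = 0.47). Aldh1a7 had 2.04, -0.06, 2.53, 0.34 and 2.28, again without a call between THI and IMZ (edgeR adjusted p = 0.389). Per1 had -1.45, -0.11, -0.96, -1.12 and -0.81 (edgeR adjusted p = 0.335 for THI against IMZ). Cdkn1a had -1.49, 0.06, -0.19, 0.25 and -0.87 and Tp53inp1 -0.68, 0.21, -0.02, -0.46 and -0.39.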

How the data were processed

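Total liver RNA of 31 rats was sequenced as paired ends. The authors checked reads with FastQC 0.11.5, mapped them to Rnor_5.0 and counted uniquely mapped reads per gene with STAR 2.5.2b, and they deposited these raw counts. The annotation release and strand setting are not given in the sources used here. The second table the authors deposited, a signal per gene, equals the counts divided by a DESeq2 1.15.1 size factor (largest relative deviation 5.3e-15) and was used for that check only.

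Counts were tested with edgeR 4.0.16 in R 4.3.3 (TMM, legacy quasi-likelihood fit of all 31 libraries, a mean for each of 7 groups, Benjamini-Hochberg threshold 0.05, prior count 2 for log2 CPM). Genes with a summed count of at least 2 were kept, 19904, of which 17144 had a symbol. The common biological coefficient of variation was 19.4%. DESeq2 1.42.0, other filters and scalings, thinned counts, a replicate block and each rat left out were alternatives. Named were the 15 largest rises and 12 largest falls with mean log2 CPM above 0 and groups apart, up to 8 called members per list, the 3 highest members of lists without a call, the study's 10 genes and 5 genes per direction of the contrasts with IMZ and CTD. Grin2c, Egln3, Crot, Sema4a, Avpr1a, Lcn3, the second Cyp3a23/3a1 identifier and uncalled list members such as Por, Cyp1a1 or Nr0b2 fall outside this rule and, like those marked in the text, were chosen after their values were seen. The comparison and the 41 lists were chosen with earlier results of these data known. Results of 2 genes are not reported here. Scripts were tested on simulated data. P-values measure the spread between rats, and sequences come from RefSeq (GRCr8). Tables and figures were made with Python 3.11.15, pandas 2.3.3 and matplotlib 3.10.9.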

Additional observations from a re-analysis of the deposited data

Results flagged for a closer look

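The test covered 252 groups, from 126 named genes in the controls and in the THI rats. In 21 of these groups 1 rat stood apart from the others of its group by Dixon's criterion on log2 CPM. This happened 10 times in the controls and 11 times with THI. Chance gives about 1 in 20.

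Among the controls, the following values stood apart. Cyp2b1 was lowest in control 2 at 0.0302 CPM (others 0.305 to 0.998). Abcc3 was highest in control 4 at 25.2 CPM (others 6.97 to 11). Pir was lowest in control 7 at 1.5 CPM (others 2.29 to 3.28). Gsta3 was lowest in control 3 at 35 CPM (others 71 to 126). Ephx1 was lowest in control 2 at 212 CPM (others 474 to 761). Nkx1-2 was highest in control 3 at 5.1 CPM (others 2.8 to 3.7). Tmtc2 was highest in control 4 at 3.87 CPM (others 1.57 to 2.34). Sult2a1 was lowest in control 1 at 1910 CPM (others 2440 to 3010). RT1-A1 was lowest in control 5 at 42.2 CPM (others 112 to 181). Cps1 was lowest in control 2 at 5090 CPM (others 7340 to 8380).

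Among the THI rats, these values stood apart. Aldh1a1 was lowest in THI 2 at 287 CPM (others 436 to 458). Csmd1 was lowest in THI 4 at 27.5 CPM (others 44.8 to 47.6). Vnn1 was lowest in THI 4 at 3.64 CPM (others 6.79 to 7.47). Gsta2 was highest in THI 3 at 714 CPM (others 460 to 489). Slco1a4 was lowest in THI 2 at 179 CPM (others 325 to 343). Hspa5 was highest in THI 2 at 1240 CPM (others 865 to 909). Fdps was lowest in THI 4 at 492 CPM (others 668 to 701). Sult2a1 was lowest in THI 4 at 1080 CPM (others 2150 to 2340). Igfbp3 was lowest in THI 3 at 16.8 CPM (others 24.9 to 26.5). Clec4f was highest in THI 1 at 251 CPM (others 143 to 154). Csf3r was lowest in THI 3 at 0.0551 CPM (others 0.15 to 0.167).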

How the results depend on the processing

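The count of DEGs of THI against control stayed within 1.5 times of 108 with DESeq2 size factors (108), the newer quasi-likelihood method (112), filterByExpr (118), no filter (97), a fit of the compared groups alone (97) and counts thinned to the smallest library (103). The DESeq2 Wald test gave 199 DEGs, 109 higher and 90 lower, and shared 107 with the edgeR set. Leaving out each rat in turn gave 67 to 120 DEGs, 46 to 80 higher and 15 to 40 lower. THI against IMZ gave 12 DEGs by DESeq2, 4 with the compared groups alone and 0 to 2 with a rat left out. THI against CTD gave 433 with the compared groups alone and 603 to 1309 with a rat left out. The cause of these shifts was not tested. No named gene or list reversed its direction past the threshold. Of the values of named genes under alternatives other than leaving out a rat, 972 kept their side of the threshold or their size, 30 lost the call, 2 gained it and 17 moved.

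With the replicate number as a replicate block there were 45 DEGs, 36 higher and 9 lower, 42 of them shared with the 108. Deviations of same-numbered THI and control rats correlated at -0.19, 0.23, 0.04 and 0.21 over 10182 genes. Rats of different numbers were not compared in this way, so these values cannot decide whether the numbers pair the rats. The main fit took the rats as unpaired. With counts thinned to the smallest library, 99 of the 108 genes were called.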

Other observations

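Further DEGs lay outside the lists and were picked after their values were seen. The amyloid precursor gene App was at 79.2 to 98.2 CPM in the controls (median 89.8) and at 116, 143, 135 and 119 CPM with THI, a rise of 0.52 ± 0.07 (edgeR adjusted p = 3.65e-05). Stradb, a partner of the kinase LKB1, was at 29.2 to 43.6 CPM in the controls (median 37.9) and at 53.4, 53.1, 48 and 51.9 CPM with THI, a rise of 0.44 ± 0.08 (edgeR adjusted p = 0.00666). Nol3, an inhibitor of apoptosis, was at 0.151 to 0.66 CPM in the controls (median 0.369) and at 1.72, 2.14, 0.744 and 1.14 CPM with THI, a rise of 1.99 ± 0.35 (edgeR adjusted p = 0.0021). In these 3 genes the groups did not overlap, and each was called in all 12 fits with a rat left out. The G protein subunit Gna12 rose by 0.45 ± 0.09 and was lost without THI 2 (edgeR adjusted p = 0.0806). Hibch, an enzyme of valine breakdown, rose by 0.46 ± 0.09 and was lost without THI 1 (edgeR adjusted p = 0.0611).

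Among the falls, Tcn2, the carrier of vitamin B12 into cells, was at 98.8 to 128 CPM in the controls (median 109) and at 80, 92.6, 93.4 and 69.4 CPM with THI, a fall of 0.42 ± 0.10 (edgeR adjusted p = 0.0318) that was lost without controls 2, 3, 5 or 6 or THI 1 or 4 (edgeR adjusted p from 0.0515 to 0.185). Rxrg, a retinoid X receptor and partner of CAR and PXR, was at 29.9 to 40.3 CPM in the controls (median 36.3) and at 28.9, 25.3, 27.5 and 22.2 CPM with THI, a fall of 0.46 ± 0.11 (edgeR adjusted p = 0.037) that was lost without controls 1, 3, 6 or 7 or THI 2, 3 or 4 (edgeR adjusted p from 0.0661 to 0.187).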
